A study of Mus musculus with 82 samples.

Results

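The question addressed here is what remained of imiquimod-driven skin inflammation in ears of mice that drank the CCR6 inhibitor IDOR-1117-2520 for the whole course. The comparison used 12 of the 82 libraries of the series: 6 from the group labelled as imiquimod with the drug starting at day 0, and 6 from the sham group of that experiment, which the treatment label calls vehicle. The 6 imiquimod libraries without the drug serve as a landmark. These groups belong to a start-day experiment of 30 libraries. The other experiment, a time course of 52 libraries, supplied an independent repeat: imiquimod with the drug, imiquimod and sham at day 8, with 6 libraries each. Libraries were placed in these groups by their sample labels alone, and the comparison was chosen with earlier results of these data known.

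All libraries came from right ear punches of female C57BL/6J Rj mice, whose age is not given in the sources used here. Cream with 5% imiquimod was applied once a day from day 0 to day 7, 8 applications in all, and the start-day groups compared here carry the time label day 8. The drug went into the drinking water at least 1 day before the first application. The labels do not say whether the imiquimod and sham groups drank a vehicle of the drug, so an effect of the drug's vehicle cannot be told apart from that of the drug. Nothing in the labels ties each library to its own mouse, so a p-value here speaks of the spread between libraries, which may be partly technical. Keratinocyte genes marked the tissue in all 3 groups: Krt5 ran from 8780 to 9520 CPM with the drug, from 8040 to 8850 CPM with imiquimod and from 5050 to 5630 CPM in sham. Libraries held 25.4 to 29.9 M counts with the drug, 29 to 35.5 M with imiquimod alone and 24.1 to 31 M in sham (M, 1e6). Levels are CPM, the counts scaled to 1e6 per TMM-scaled library, and ± marks the standard error of a log2 fold change from edgeR's quasi-likelihood fit. A difference was called at a Benjamini-Hochberg adjusted p under 0.05 over the 18434 genes tested.

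Imiquimod activates Toll-like receptor TLR7, and repeated application to mouse skin sets up a loop in which dendritic cells make IL-23, gamma delta T cells make IL-17 and IL-22, and keratinocytes answer with neutrophil-drawing chemokines, antimicrobial peptides and thickening. CCR6 is the receptor for the chemokine CCL20 and guides IL-17-producing T cells into skin. The upper epidermis builds the cornified envelope from proteins such as loricrin, filaggrin, the small proline-rich (Sprr) proteins and the late cornified envelope (Lce) proteins. That programme shifts from its resting to its repair form in inflamed skin.

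Ears given the drug from day 0 still differed from sham in most of the genes measured. Against sham, 13692 of 18434 genes were called (74.3%), with 6767 higher (36.7%) and 6925 lower (37.6%). Changes of at least 2 fold, a log2 of 1, were fewer: 1847 genes rose (10%) and 2378 fell (12.9%). Imiquimod alone differed from sham in 14393 genes (78.1%, with 38.1% higher and 39.9% lower), and the drug group differed from imiquimod in 6466 genes (35.1%, with 18.2% higher and 16.9% lower). The comparisons share libraries, so their counts are given side by side. Because most genes were called, a count of called genes in any list has to be read against these shares.

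The residual was then measured on genes that imiquimod changed at least 2 fold at day 8 of the time course, a choice made without the start-day libraries. In the time course 21.7% of genes met that rule, 10.2% higher and 11.6% lower, and 3873 of these genes were tested in the start-day experiment. Of the 3873, 3455 (89.2%) were still away from sham in the imiquimod direction under the drug. Another 54 (1.39%) were back at sham, meaning not called and within 1.5 fold by an equivalence test, as 13.5% of all genes were, and 47 (1.21%) lay past sham, called on the other side. The remaining 317 (8.18%) were undecided, neither called nor shown to be within 1.5 fold. For the 1867 genes that imiquimod raised, the median log2 fold change against sham was 1.44 with the drug and 1.77 with imiquimod alone. For the 2006 genes that it lowered, the medians were -1.35 with the drug and -1.77 with imiquimod. The median over all tested genes was -0.02 in both comparisons. Over the genes that imiquimod also changed in the same direction in the start-day experiment, which include 8 of the 47 genes past sham, the median share of the start-day imiquimod effect that remained under the drug was 81.5% for raised genes (quartiles 69.3% to 92.6%, 1782 genes) and 75.4% for lowered genes (63.9% to 85.9%, 1863 genes).

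The residual was visible in each library. The score of a library, its median log2 distance from the sham mean over the raised genes, ran from 1.28 to 1.53 with the drug, from 1.62 to 1.83 with imiquimod and from -0.05 to 0.07 in sham. Over the lowered genes it ran from -1.44 to -1.15 with the drug, from -1.80 to -1.63 with imiquimod and from -0.04 to 0.05 in sham. The 3 start-day groups did not overlap on either score, and the drug group lay nearer to imiquimod than to sham. At day 8 of the time course, drug and imiquimod libraries overlapped on both scores. There the raised-gene score ran from 1.318 to 1.692 with the drug and from 1.5 to 1.686 with imiquimod. The lowered-gene score ran from -1.353 to -0.986 with the drug and from -1.466 to -1.288 with imiquimod. The separation of drug from imiquimod was thus seen in the start-day libraries only, and it was not tested in the time course.

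**Figure D1:**
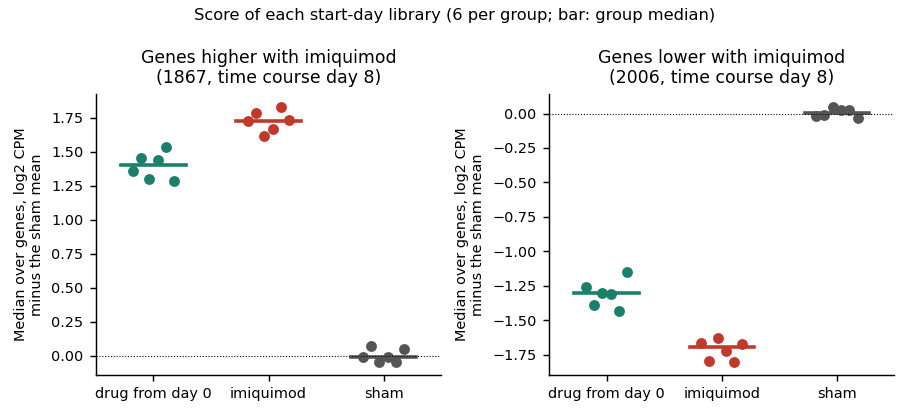
Each point is 1 start-day library (6 per group) and each bar a group median; the y axis is the median log2 CPM minus the sham mean over the genes that imiquimod raised (left) or lowered (right) in the time course. Drug libraries sit between 1.28 and 1.53 on the left, below all imiquimod libraries and far above sham.

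**Figure D2:**
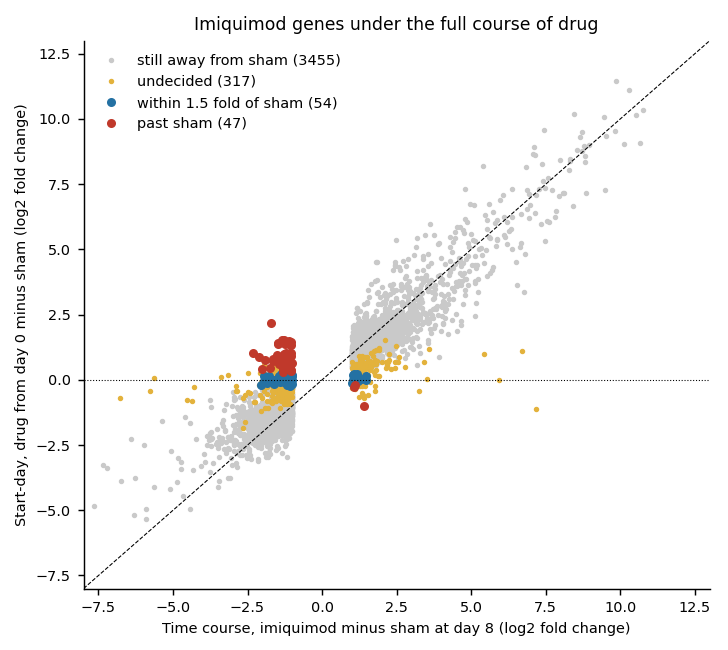
Each point is 1 of the 3873 imiquimod genes, with its imiquimod effect in the time course on the x axis and its drug-minus-sham log2 fold change in the start-day experiment on the y axis; the dashed line marks equal values. Grey points (3455) were still away from sham, yellow points (317) undecided, blue points (54) were within 1.5 fold of it and red points (47) were past it, 44 of them among the genes that imiquimod had lowered.

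The largest residuals included genes that stressed keratinocytes are known to express. Among genes averaging a log2 CPM of 1 or more, the 8 highest were Sprr2b, S100a9, Cstdc5, Sprr2e, S100a8, Defb4, Defb3 and Stfa1. They encode envelope precursors (Sprr2), the calprotectin subunits (S100a8, S100a9), cysteine protease inhibitors of the stefin family (Cstdc5, Stfa1) and beta-defensins (Defb3, Defb4). Neutrophils also express S100a8, S100a9 and stefins, and 12 of the 13 tested genes of the list of neutrophil chemokines and neutrophil genes were higher than sham (median 3.82), a list whose part in these values was not tested. S100a8 ran from 970 to 2110 CPM with the drug (median 1700), from 3190 to 4260 CPM with imiquimod (median 3690) and from 0.443 to 3.13 CPM in sham (median 1.25). The 3 groups did not overlap. Its log2 fold change was 10.17 ± 0.39 against sham (adjusted p = 5.05e-19) and -1.20 against imiquimod (adjusted p = 0.000171). S100a9 behaved alike, at 1050 to 2560 CPM with the drug, 3820 to 5170 CPM with imiquimod and 0.201 to 1.45 CPM in sham. Defb4 had 1674 counts over the 6 drug libraries and 1 count over the 6 sham libraries, a ratio of 1930 with a 95% counting interval of 347 to 76400.

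Whole lists of such genes stayed high. Of 12 tested antimicrobial and acute-phase genes, 12 were higher than sham (median log2 fold change 4.86) and 10 were below imiquimod. Among them Slpi, a protease inhibitor with antimicrobial activity, rose by 5.20 ± 0.27 and Saa3, an acute-phase protein, by 8.04 ± 1.47. Of 21 stress keratin, Sprr and stefin genes, 21 were higher than sham (median 8.94) and 19 were below imiquimod. Krt6a, the keratin of wounded and hyperproliferative epidermis, ran from 2200 to 3680 CPM with the drug, from 6150 to 8400 CPM with imiquimod and from 42.8 to 89.2 CPM in sham. Its groups did not overlap, with a log2 fold change of 5.69 ± 0.18 against sham. The Sprr2, stefin and Krt6 genes have near-identical neighbours, so reads may have been shared among copies and single-gene values are less certain than the list.

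The sequences before these genes are shown because the genes of the list moved together. In the 250 bases before the start, the letters TGANTCA, the pattern that AP-1 factors of the Jun and Fos families bind, were present in 8 of 15 promoters of the stress keratin, Sprr and stefin list (53.3%) and in 8 of 17 promoters of the cornified envelope list described further on (47.1%). The share was 6.87% over 27025 promoters. Both strands were searched, which for this pattern are the same, and none of 13 Lce1 promoters held it. It was also present in 4 of 15 promoters of the type I interferon list (26.7%). Among the 8 highest genes it was in 2 of 7 promoters (28.6%), as among the 8 named past sham further on. Promoters of near-identical copies were counted one by one, so these shares do not rest on independent sequences. Windows from 5 such promoters follow, 5′ to 3′ on the gene's strand, from RefSeq on GRCm38.p6, with the pattern in capitals.
Sprr2b, chr3:92316480-92316546, plus strand: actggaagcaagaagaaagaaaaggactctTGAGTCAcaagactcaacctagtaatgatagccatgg
Sprr2e, chr3:92351920-92351986, plus strand: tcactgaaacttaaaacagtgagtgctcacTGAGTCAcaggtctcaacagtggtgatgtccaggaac
Sprr2d, chr3:92338917-92338983, plus strand: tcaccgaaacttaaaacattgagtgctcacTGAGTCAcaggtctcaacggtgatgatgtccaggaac
Lor, chr3:92083154-92083220, minus strand: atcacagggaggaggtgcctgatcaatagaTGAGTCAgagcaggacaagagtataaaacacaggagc
Flg, chr3:93273413-93273479, plus strand: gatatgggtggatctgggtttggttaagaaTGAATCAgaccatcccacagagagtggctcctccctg
The Sprr2d and Sprr2e windows are close to each other in sequence, and the pattern starts 193 bases before the start in both. A match describes these letters and not a bound site.

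Most of the IL-23 and IL-17 axis also stayed above sham. Of 14 tested genes of this list, 11 were higher, 1 was lower and 2 were not called (median 2.86), and 6 were below imiquimod. Il17f, a cytokine of type 17 T cells, ran from 0.873 to 3.37 CPM with the drug (median 2.22), from 3.86 to 6.18 CPM with imiquimod (median 4.82) and from 0.0672 to 0.435 CPM in sham (median 0.166). No 2 groups overlapped, and its log2 fold change was 3.44 ± 0.43 against sham (adjusted p = 1.91e-09) and -1.18 against imiquimod (adjusted p = 0.001). Il22, which drives keratinocyte growth, ran from 0.793 to 2.68 CPM with the drug, from 2.44 to 5.14 CPM with imiquimod and from 0 to 0.123 CPM in sham (log2 fold change against sham 4.77 ± 0.61). For Il22 the drug libraries overlapped imiquimod and not sham. Il17a rested on few reads, at 0.119 to 0.391 CPM with the drug, 0.354 to 1.2 CPM with imiquimod and 0 to 0.0948 CPM in sham, where it had 4 counts in all. Il23a, a subunit of IL-23, was 3.65 ± 0.49 above sham and was not called against imiquimod (-0.63, adjusted p = 0.0656).

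The receptor that the drug blocks and its ligand parted ways. Ccr6 ran from 0.488 to 0.928 CPM with the drug (median 0.583), from 1.24 to 1.9 CPM with imiquimod (median 1.53) and from 0.198 to 0.644 CPM in sham (median 0.499). Drug and sham libraries overlapped, and no imiquimod library did. Its log2 fold change was 0.53 ± 0.28 against sham (adjusted p = 0.0815, undecided by the equivalence test) and -1.20 against imiquimod (adjusted p = 0.000301). Without sham replicate 5 the difference from sham was called, at 0.64 with an adjusted p of 0.0472. Ccl20 ran from 5.07 to 18.4 CPM with the drug, from 3.09 to 12.9 CPM with imiquimod and from 0.348 to 0.768 CPM in sham, so it stayed 4.21 ± 0.57 above sham and did not differ from imiquimod by a called amount (0.32, adjusted p = 0.55). Il23r, the IL-23 receptor, was the other member not called against sham (0.67, adjusted p = 0.209).

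Among 15 IL-1, IL-36 and IL-20 family genes and related epithelial cytokines, 13 were higher than sham, 2 were not called and 6 were below imiquimod. Il1b ran from 15.9 to 51.3 CPM with the drug, from 49.8 to 107 CPM with imiquimod and from 0.245 to 0.632 CPM in sham. The epithelial cytokine Il36a (5.42 ± 0.13) and the antagonist gene Il36rn (2.91 ± 0.08) kept most of their rise, Il36a lying 0.35 below imiquimod and Il36rn not called against it (0.07, adjusted p = 0.522). Il19 was far lower than with imiquimod (-2.11) yet 7.26 ± 1.60 above sham. The alarmin Il33 was the member closest to sham, at 75.4 to 107 CPM with the drug, 147 to 225 CPM with imiquimod and 79.6 to 91 CPM in sham. Drug and sham overlapped for Il33 (0.16, adjusted p = 0.292), while the drug lay 1.02 below imiquimod on the log2 scale. A fit of the drug and sham libraries alone called this small Il33 difference (0.17, adjusted p = 0.0334). Il20, the other gene not called, was near the detection limit (-1.10, adjusted p = 0.105). Il18 and Tslp were above sham (1.22 and 0.70) and also above imiquimod (0.60 and 0.74).

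Neutrophil and macrophage genes were below imiquimod and mostly above sham. In bulk tissue, fewer cells of a type and less RNA per cell cannot be told apart. Of 13 neutrophil chemokine and neutrophil genes, 12 were higher than sham, 1 was lower (the decoy receptor Il1r2) and 13 were below imiquimod. The list median against sham was 3.82 with the drug and 5.00 with imiquimod. At day 8 of the time course these medians were 4.75 and 4.76, and the drug was not tested against imiquimod there. Cxcl2, a neutrophil-attracting chemokine, ran from 5.95 to 24.5 CPM with the drug, from 26.9 to 58.7 CPM with imiquimod and from 0.0284 to 0.158 CPM in sham. Its groups did not overlap. Cxcr2, the receptor for that chemokine, was 3.82 ± 0.17 above sham and 0.52 below imiquimod on the log2 scale. The sum of this list was 113 to 179 CPM with the drug, 228 to 363 CPM with imiquimod and 77.5 to 92.8 CPM in sham.

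Of 18 macrophage and monocyte genes, 18 were higher than sham and 15 were below imiquimod, with a median of 1.34 with the drug and 1.98 with imiquimod. The monocyte receptor Ccr2 (2.29 ± 0.17), the integrin Itgam (2.81 ± 0.19) and the mannose receptor Mrc1 (1.35 ± 0.12) were examples, all at or above the list median with the drug. T cell genes split. Of 13 tested, 7 rose and 6 fell: Foxp3 of regulatory T cells rose by 2.99 ± 0.29 and the cytotoxic granule gene Gzmb by 2.72 ± 0.26, whereas the CD3 subunit genes Cd3e and Cd3g fell by 1.54 ± 0.12 and 2.04 ± 0.14. Trac, the constant region of the T cell receptor alpha chain, and the coreceptor Cd4 were higher than sham by 1.40 ± 0.25 and 1.59 ± 0.17. Gamma delta T cell genes were mostly below sham, with 7 of 10 lower, 1 higher and 2 not called (Blk, 0.70, adjusted p = 0.0841, and Scart1, -0.22, adjusted p = 0.457). Trdc, the constant region of the delta chain, ran from 1.46 to 4.17 CPM with the drug, from 3.65 to 7.61 CPM with imiquimod and from 13.3 to 18.2 CPM in sham. Trdv4, the variable segment used by resident epidermal gamma delta T cells, was 2.80 ± 0.26 below sham on the log2 scale. Scart2, which marks the gamma delta T cells that make IL-17, was the 1 higher gene (0.57 ± 0.25, adjusted p = 0.0428). It was 1.16 below imiquimod, and its call against sham was lost with voom, with no filter and without drug replicate 25, 28, 29 or 30 or sham replicate 1, 3, 4 or 5 (adjusted p 0.0528 to 0.119). Langerhans and dendritic cell genes split as well, with 3 of 8 higher than sham, 3 lower and 2 not called (median -0.05). Among the lower ones, Cd207, the langerin gene of Langerhans cells, fell by 1.36 ± 0.12.

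The interferon response differed widely from library to library. Of 23 type I interferon genes, 14 were higher than sham, 9 were not called and 1 (Oas2, an antiviral synthetase) was below imiquimod. The summed level of the list was 142 to 315 CPM with the drug, 125 to 409 CPM with imiquimod and 128 to 143 CPM in sham. Ifit1, an antiviral gene of this response, ran from 2.16 to 10.5 CPM with the drug, from 1.24 to 11.4 CPM with imiquimod and from 0.727 to 1.31 CPM in sham. Drug and imiquimod libraries overlapped widely, and the drug group was above sham in each library (2.14 ± 0.56, adjusted p = 0.00109). Mx1 and Irf7 were higher than sham by 2.57 ± 0.55 and 1.98 ± 0.49. The letters GAAA, then any pair of bases, then GAAA again, the core of the interferon-stimulated response element, were found on either strand in 7 of 15 promoters of this list (46.7%) and in 3.04% of all promoters. Isg15 and Ifit1 carry several matches, capitals marking them and overlapping matches running together.
Isg15, chr4:156200845-156200914, minus strand: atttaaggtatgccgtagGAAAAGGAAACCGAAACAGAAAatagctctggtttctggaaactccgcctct
Ifit1, chr19:34640774-34640843, plus strand: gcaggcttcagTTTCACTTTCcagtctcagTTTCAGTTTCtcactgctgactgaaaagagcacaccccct

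Genes of interferon gamma and antigen presentation were mixed. Of 18, 7 rose, 4 fell and 7 were not called. The MHC class II gene H2-Ab1 and its invariant chain Cd74 fell by 0.60 ± 0.09 and 0.56 ± 0.09, while the guanylate-binding protein gene Gbp3 rose by 0.99 ± 0.26.

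Cell division genes stayed close to their imiquimod level. Of 24 replication and mitosis genes, 24 were higher than sham, with a median of 1.97 with the drug and 2.03 with imiquimod, and 7 were below imiquimod. Mki67, a marker of cycling cells, ran from 182 to 232 CPM with the drug, from 178 to 206 CPM with imiquimod and from 45.8 to 63.3 CPM in sham. Drug and imiquimod overlapped, and both lay clear of sham (2.02 ± 0.06, adjusted p = 7.3e-23). Ccna2 (2.10 ± 0.06) and Top2a (1.99 ± 0.06) were not called against imiquimod, while Ccnb1 (2.19 ± 0.07) was lower than with imiquimod by 0.16. Glycolysis and hypoxia genes rose in 12 of 14, among them lactate dehydrogenase Ldha (1.53 ± 0.04), with 8 of 14 below imiquimod. The members not called were Car9 (0.13, adjusted p = 0.614) and Aldoa (0.07, adjusted p = 0.0513), and Aldoa was called with other scaling factors (0.08).

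**Figure D3:**
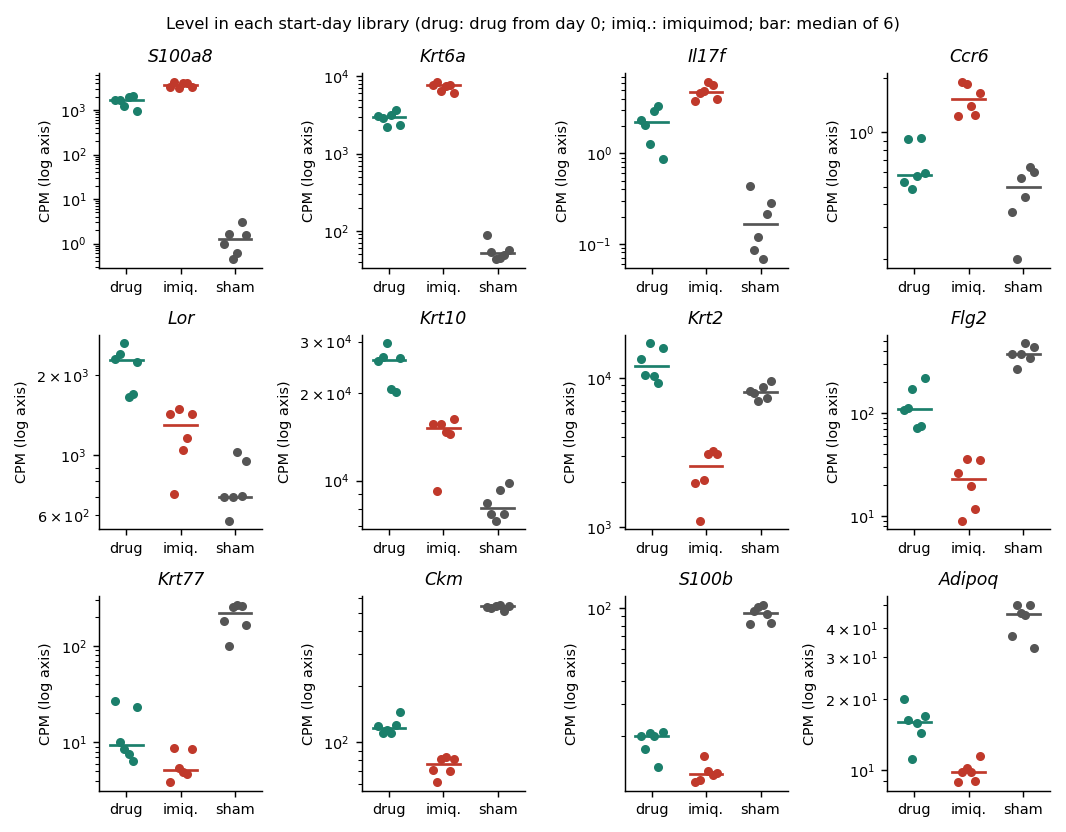
Each panel shows 1 gene in the 18 start-day libraries (CPM on a log axis, bar at the median of 6), with the drug from day 0 on the left, imiquimod in the middle and sham on the right. S100a8, Krt6a and Il17f lie between imiquimod and sham, Ccr6 overlaps sham, Lor and Krt10 lie above both other groups, and Ckm, S100b and Adipoq stay well below sham.

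Genes below sham after the full course included those of structures under the epidermis and from the resting epidermis and its appendages. The 8 lowest called genes by the same rule were Serpina3b, Paqr7, Serpina3j, Krt77, Actn3, Pvalb, Krt24 and P2rx2. Serpina3b, a serine protease inhibitor with close copies in the genome, ran from 2.52 to 7.65 CPM with the drug, from 0.348 to 1.24 CPM with imiquimod and from 153 to 183 CPM in sham. The groups did not overlap, at -5.19 ± 0.23 against sham and 2.43 against imiquimod. Paqr7, a membrane progestin receptor, ran from 11.4 to 13.8 CPM with the drug, from 6.26 to 8.39 CPM with imiquimod and from 129 to 351 CPM in sham (-4.46 ± 0.17 against sham). Krt77, a suprabasal keratin, ran from 6.39 to 27.1 CPM with the drug, from 3.89 to 8.7 CPM with imiquimod and from 99.5 to 267 CPM in sham. Its drug libraries overlapped imiquimod and not sham (-3.89 ± 0.34). Krt24, another keratin, was 3.37 ± 0.44 below sham and 2.99 above imiquimod on the log2 scale.

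Muscle, fat, cartilage and nerve genes remained mostly below sham. Of 13 skeletal muscle genes, 13 were below sham (median -1.71 with the drug and -2.24 with imiquimod) and 13 were above imiquimod. Ckm, muscle creatine kinase, ran from 112 to 146 CPM with the drug, from 61.3 to 83.6 CPM with imiquimod and from 512 to 551 CPM in sham. The 3 groups did not overlap, at -2.13 ± 0.08 against sham. The fast-fibre genes Actn3 (-3.78 ± 0.15) and Pvalb (-3.76 ± 0.15) fell further than most of the list, while the fast myosin Myh4 fell by 2.13 ± 0.13. Of 12 adipocyte genes 12 were lower (median -1.41), with the adipokine Adipoq at 11.1 to 19.9 CPM with the drug, 8.88 to 11.4 CPM with imiquimod and 33 to 50.2 CPM in sham. Of 12 cartilage genes 10 were lower, such as aggrecan, Acan (-1.42 ± 0.06), and Col2a1 (0.13, adjusted p = 0.48) and Matn1 (-0.03, adjusted p = 0.928) were not called. Of 10 Schwann cell genes 10 were lower, with the calcium-binding protein gene S100b at 13.6 to 21.1 CPM with the drug, 11.3 to 15.7 CPM with imiquimod and 81.3 to 104 CPM in sham (-2.31 ± 0.09), and of 6 melanocyte genes 6 were lower, with Mlana at -1.55 ± 0.15.

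Dermal and vascular genes fell by less. Of 16 fibroblast and matrix genes, 12 fell, 3 rose and 1, the collagen gene Col3a1, was not called (-0.08, adjusted p = 0.561). The list median was -0.67 with the drug and -0.57 with imiquimod, with 7 genes below and 3 above imiquimod. Dcn and Col1a2 fell by 1.38 ± 0.04 and 1.23 ± 0.08, whereas the repair-associated genes Timp1 and Tnc rose by 2.14 ± 0.18 and 1.55 ± 0.13, each still below imiquimod. Of 14 vessel genes, 10 fell and 4 rose. Their median was farther below sham with the drug (-0.38) than with imiquimod (-0.15), and 9 were below imiquimod and 0 above. Prox1, the lymphatic regulator, fell by 1.11 ± 0.13, and Selp, the P-selectin gene of activated endothelium, rose by 1.12 ± 0.17. Of 10 mast cell genes 8 fell, among them Kit (-0.95 ± 0.07), and 2 rose, among them Hdc (1.66 ± 0.25), which encodes the histamine-making enzyme and is also expressed by other leukocytes. The mast cell median was -0.45 with the drug and -0.28 with imiquimod, with 3 genes below imiquimod and 0 above.

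Sebaceous genes were closer to sham than with imiquimod. Of 13, 9 were below sham, 2 above and 2 not called, and 12 were above imiquimod, and the median was -0.60 with the drug and -1.64 with imiquimod. Scd1, a fatty acid desaturase, ran from 1870 to 2930 CPM with the drug, from 1020 to 1270 CPM with imiquimod and from 5830 to 6950 CPM in sham, with no overlap. The melanocortin receptor Mc5r fell by 2.20 ± 0.19. Awat1, a wax synthase, was at 59.6 to 92.9 CPM with the drug, 31.8 to 42.5 CPM with imiquimod and 60.5 to 90.4 CPM in sham, where drug and sham overlapped (-0.08, adjusted p = 0.686). The other gene not called was Scd3 (0.48, adjusted p = 0.12), which was called without sham replicate 4 (0.84, adjusted p = 0.00219). Elovl3 (0.49) and Dgat2l6 (0.65) were above both sham and imiquimod.

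Departures from both sham and imiquimod were found in the last steps of keratinocyte differentiation. Of 20 cornified envelope and corneodesmosome genes, 18 were higher than sham and 2 were lower (Flg2 and Ecm1), with 7 above and 4 below imiquimod. Imiquimod alone was already higher than sham for 17 of the 20. The list median was 1.88 with the drug and 1.66 with imiquimod, so most of this rise was present without the drug. Of 21 late cornified envelope genes, 20 were higher and 1 was lower, with 15 above and 6 below imiquimod. Lor, which encodes loricrin, the main protein of the cornified envelope, ran from 1650 to 2620 CPM with the drug (median 2260), from 720 to 1490 CPM with imiquimod (median 1290) and from 571 to 1030 CPM in sham (median 701). Every drug library was above every other library, at 1.47 ± 0.18 over sham (adjusted p = 5.06e-08) and 0.83 over imiquimod (adjusted p = 0.000732). Flg, the filaggrin gene, ran from 3560 to 6300 CPM with the drug, from 1750 to 3980 CPM with imiquimod and from 175 to 302 CPM in sham (4.38 ± 0.19). Drug and imiquimod overlapped a little for Flg, and the drug was higher by 0.71 (adjusted p = 0.00511).

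Within the Lce cluster, the 2 main subfamilies took different positions. Of 14 Lce1 genes, which belong to the resting epidermis, 14 were above imiquimod, 13 were above sham and 1, Lce1m, was below it, with a median of 1.36 with the drug and 0.58 with imiquimod. Lce1a1 ran from 99.8 to 173 CPM with the drug, from 51.3 to 90 CPM with imiquimod and from 46 to 89.3 CPM in sham, where imiquimod and sham overlapped and the drug stood clear of both. Lce1m ran from 25.7 to 57.5 CPM with the drug, from 9.3 to 20.1 CPM with imiquimod and from 76.2 to 153 CPM in sham. Of 6 Lce3 genes, which are induced in wounded and psoriatic skin, 6 were above sham and 6 were below imiquimod, with a median of 5.78 with the drug and 6.57 with imiquimod. Lce3c, for example, ran from 60.1 to 88.6 CPM with the drug, from 108 to 149 CPM with imiquimod and from 1.65 to 2.72 CPM in sham. The summed Lce1 level was 763 to 1400 CPM with the drug, 399 to 722 CPM with imiquimod and 381 to 727 CPM in sham. Lce genes are short and alike, so counts may have been shared among neighbours.

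Suprabasal keratins did not move as a block. Of 8 tested, 5 were higher than sham, 2 were lower (Krt77 and Krt24) and 1 was not called (Krt80), and 6 were above imiquimod. Krt10, a keratin of the spinous layer, ran from 20100 to 29600 CPM with the drug, from 9200 to 16300 CPM with imiquimod and from 7290 to 9810 CPM in sham, with every drug library above the rest (1.57 ± 0.13). Krt1 was 5.08 ± 0.10 above sham and not called against imiquimod (0.03). Krt2, the keratin of the upper spinous and granular layers, ran from 9340 to 17200 CPM with the drug (median 12100), from 1100 to 3220 CPM with imiquimod (median 2560) and from 7000 to 9610 CPM in sham (median 8070). Against imiquimod the drug group was higher by 2.41 ± 0.29 without overlap (adjusted p = 1.27e-06). Against sham it overlapped slightly and was higher by 0.66 ± 0.29 (adjusted p = 0.0423), a call that was lost with no filter and without drug replicate 25, 27 or 30 or sham replicate 1, 2, 3, 4 or 5 (adjusted p 0.0529 to 0.0967). Krt79 was above sham (0.43) and above imiquimod (1.12).

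Filaggrin-2 lay on the other side of sham from filaggrin, although both were above imiquimod. Flg2 ran from 71.2 to 222 CPM with the drug (median 110), from 9.11 to 36.4 CPM with imiquimod (median 23) and from 266 to 476 CPM in sham (median 376). The groups did not overlap, at -1.59 ± 0.36 against sham (adjusted p = 0.00036) and 2.46 against imiquimod (adjusted p = 2.58e-05). Ecm1, the other lower member, fell by 0.52 ± 0.07. Drug replicates 27 and 30, which held the least S100a8 of their group (1210 and 970 CPM), held the most Flg2 (173 and 222 CPM). They also held the most Krt2 (17200 and 16000 CPM). Both were also the shallowest libraries of the group (25.4 and 25.8 M counts), with the fewest genes detected (24613 and 24652). This pattern was seen in the values and was not tested. Tgm3 (3.30 ± 0.06), Casp14 (4.21 ± 0.10) and Rptn (7.31 ± 0.17), which act in envelope cross-linking, filaggrin processing and envelope structure, remained high, and Casp14 and Rptn were not called against imiquimod. Of 16 barrier lipid genes 16 were above sham (median 1.25), among them the ceramide synthase Cers3 (2.45 ± 0.08) and the lipoxygenase Alox12b (1.98 ± 0.09). Basal keratins split, with Krt14 (1.59 ± 0.07) and Krt5 (0.79 ± 0.03) higher and Krt15 (-2.62 ± 0.16) lower than sham.

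**Figure D4:**
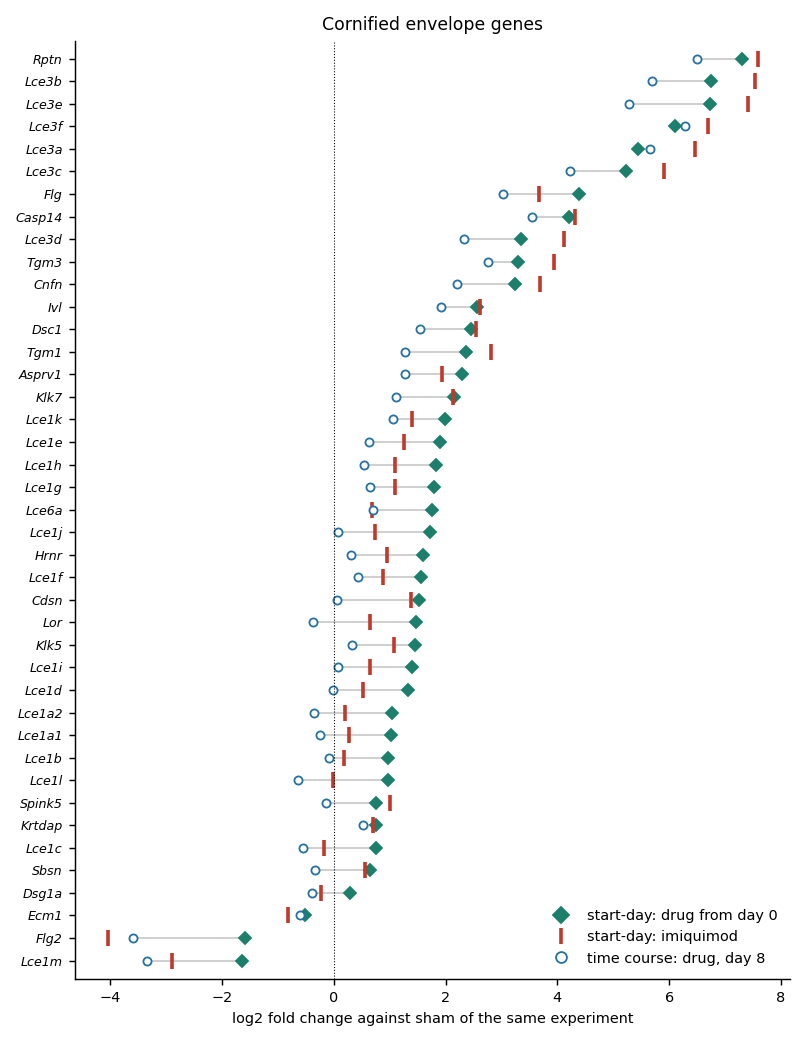
Each row is 1 cornified envelope or late cornified envelope gene, ordered by the start-day drug-minus-sham log2 fold change (diamonds); red ticks are imiquimod minus sham in the start-day experiment and open circles drug minus sham at day 8 of the time course. Diamonds lie right of the ticks for the 14 Lce1 genes and left of them for the 6 Lce3 genes.

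The 47 genes past sham were defined by the direction of imiquimod in the time course, and 44 of them were genes that imiquimod had lowered there. The 8 largest by the naming rule were Kprp, Lor, Sprr4, Unc93a2, Fgf22, Lce1a2, Frmd5 and Lce1a1, of which Kprp, Lor, Sprr4, Lce1a1 and Lce1a2 are cornification genes. Kprp ran from 359 to 685 CPM with the drug, from 177 to 357 CPM with imiquimod and from 139 to 224 CPM in sham (1.54 ± 0.18 against sham). In the start-day experiment itself imiquimod moved 8 of the 47 genes in the time-course direction, 15 were called on the other side of sham and 24 were not called. For Lor and Kprp the start-day imiquimod libraries were already above sham (0.65 and 0.76), so the drug group lay farther from sham than imiquimod did. Of the 47, 37 were called between drug and imiquimod.

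Crossing within the start-day experiment was also uncommon. A classification added after the data were seen asked for a call against sham with imiquimod and a call on the opposite side with the drug, and 73 of 14393 imiquimod genes met it, 36 above sham and 37 below with the drug. Mmp9, a gelatinase, ran from 6.23 to 11.1 CPM with the drug, from 19.4 to 31 CPM with imiquimod and from 11.8 to 18.6 CPM in sham. Its groups did not overlap, at -0.81 ± 0.18 with the drug and 0.61 with imiquimod, both against sham. Mmp3, a stromelysin, had -0.70 with the drug and 0.36 with imiquimod, and Sorl1, a sorting receptor, -0.61 and 0.28. In the other direction stood Krt2 (0.66 with the drug and -1.75 with imiquimod), Cngb1 (0.69 and -1.71), Cfap157 (0.62 and -1.83) and the adaptor Grap (0.62 and -0.31). Without a filter the calls of Cngb1 and Cfap157 against sham were lost (adjusted p = 0.0519 and 0.0724), as they were for Cngb1 without drug replicate 27 or 30 or sham replicate 3, and for Cfap157 without drug replicate 25, 27 or 30 or sham replicate 1, 2, 3 or 5.

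Of the 14393 genes that imiquimod changed, 525 (3.65%) lay farther from sham with the drug than with imiquimod, on the same side of sham. Whatever imiquimod did, 671 genes were higher with the drug than in both other groups and 439 were lower, counts that include the 36 and 37 genes that crossed sham. Padi1, which citrullinates filaggrin and keratins, was among the higher ones, at 8.07 to 11.9 CPM with the drug, 3.35 to 7.72 CPM with imiquimod and 0.491 to 1.2 CPM in sham (3.68 ± 0.23). Fxyd4, an ion transport regulator, was 5.68 ± 0.46 above sham and 0.69 above imiquimod. Among the lower ones were Trdc (-2.31 against sham and -0.59 against imiquimod) and the neurotrophin receptor Ntrk2, at 33.6 to 40.1 CPM with the drug, 37.7 to 46.5 CPM with imiquimod and 84.4 to 96.1 CPM in sham (-1.30 ± 0.05).

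Few genes were back at sham. Of the 54, start-day imiquimod moved 42 in the time-course direction, 1 was called on the other side of sham and 11 were not called. Those 11 were thus not shown to have left sham in this experiment. The 8 genes at sham with the largest time-course imiquimod effect were Gprin2, Calcb, Adh6b, Prr9, Elmod1, Krt80, Mest and Card14. Gprin2 ran from 25.1 to 39.6 CPM with the drug, from 9.43 to 18.2 CPM with imiquimod and from 30.5 to 41.4 CPM in sham. Drug and sham overlapped (-0.21, adjusted p = 0.158), and imiquimod stood below both. Adh6b, an alcohol dehydrogenase, ran from 7.25 to 10.1 CPM with the drug, from 1.2 to 4.45 CPM with imiquimod and from 5.73 to 9.51 CPM in sham (0.16 against sham). Mest was the one raised by imiquimod among the 8, at 3.65 to 6.15 CPM with the drug, 7.68 to 9.87 CPM with imiquimod and 4.17 to 5.84 CPM in sham (-0.02 against sham). For others the start-day imiquimod effect was itself small: Calcb, a neuropeptide gene, had 0.13 with the drug and -0.31 with imiquimod, and Krt80 -0.03 with the drug and -0.25 with imiquimod, all against sham. Card14, a keratinocyte NF-kappaB adaptor, had 0.09 with the drug and -0.44 with imiquimod, and Elmod1 -0.14 with the drug and -0.32 with imiquimod.

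The time course gave the same comparison in other libraries: drug against sham at day 8. There 12553 of 18780 genes were called (66.8%, with 34.2% higher and 32.6% lower), and 10562 genes were called with the same sign in both experiments, which is 77.1% of the start-day calls and 84.1% of the time-course calls. Over 18198 genes tested in both, the log2 fold changes had a Pearson r of 0.89, a description across genes that are not independent. Of the 3455 genes still away from sham, 3351 were called with the same sign in the time course, which also supplied the choice of these genes through its sham libraries. Of the 47 genes past sham, 28 were called on the opposite side in the time course, still lowered or raised as by imiquimod, and 19 were not called. Of the 54 genes at sham, 48 were called against sham in the time course.

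A joint fit of both experiments tested whether the residual itself differed, and it did for 3719 of 19455 genes (19.1%), 2066 of them higher in the start-day experiment (10.6%) and 1653 lower (8.5%). Of the 20 cornified envelope genes 18 had a higher residual in the start-day experiment, and of the 14 Lce1 genes 14 did. Lor had a log2 fold change of 1.47 against sham in the start-day experiment and -0.38 in the time course (difference 1.90 ± 0.31, adjusted p = 3.2e-06). Imiquimod against sham gave 0.65 in the start-day experiment and -1.12 in the time course for Lor, and the Lce1 median for imiquimod was 0.58 in the start-day experiment and -0.78 in the time course. This difference between the imiquimod groups, and its part in the result, was not tested. Skeletal muscle genes had a lower residual in the start-day experiment for 12 of 13 (Ckm -2.13 in the start-day experiment and -0.84 in the time course). S100a8 (10.17 and 10.03), Krt6a (5.69 and 5.96) and Il17f (3.44 and 3.52) had no called difference between the experiments, values being in that order. The mitosis list had a median of 1.97 and 1.89, with 1 of 24 genes differing. Within the time course, antimicrobial genes had a median against sham of 4.74 with the drug and 4.8 with imiquimod. For stress keratin, Sprr and stefin genes these medians were 8.21 and 8.45, and for macrophage genes 1.86 and 2.11.

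**Figure D5:**
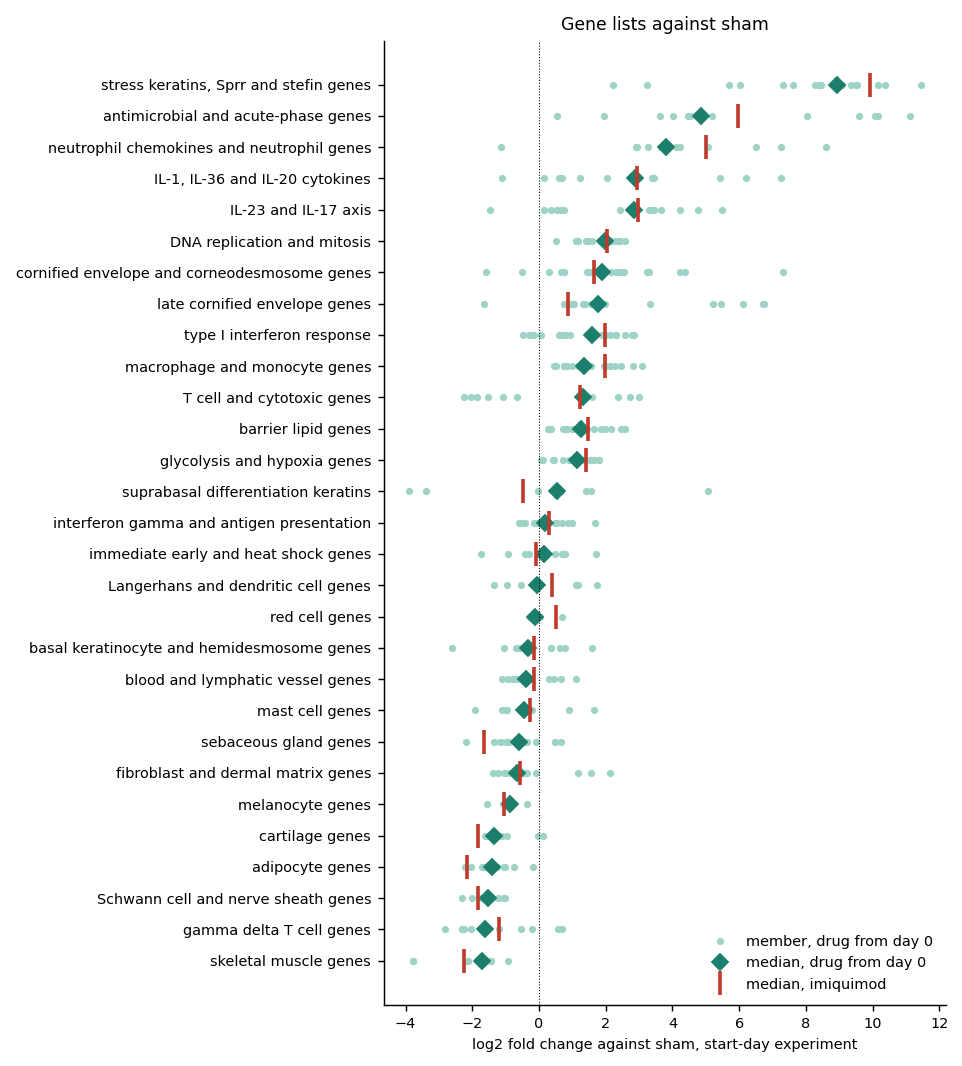
Each row is a gene list, with the drug-minus-sham log2 fold change of each member (pale points), their median (diamond) and the imiquimod-minus-sham median (red tick), all from the start-day experiment. Diamonds lie between the tick and 0 for the stress keratin, antimicrobial, neutrophil and macrophage lists and for muscle, fat, cartilage and nerve. They lie beyond the tick for several lists, among them late cornified envelope (1.76 against 0.88), gamma delta T cell (-1.62 against -1.21) and vessel genes (-0.38 against -0.15).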

How the data were processed

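Per the labels' protocols, libraries were built with the Universal Plus mRNA kit from 1 µg of ear RNA that TRI reagent had extracted. The authors deposited estimated counts per gene, named as salmon output in the table names, on GRCm39 per the submitters' processing notes. Their versions, annotation release, strand setting and filters: not given in the sources used here. The tables hold 56941 genes each. Of the start-day values 12.5% were fractional, and values were rounded to whole counts. Columns were matched to samples by title, with 0 left over. No 2 libraries of a compared group were alike within sampling noise (lowest chi-square per gene 5.69).

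edgeR 4.0.16 in R 4.3.3 was run on each experiment with all its groups in 1 fit: filterByExpr, TMM factors, robust quasi-likelihood F test and Benjamini-Hochberg adjustment over all tested genes. TMM factors were 0.962 to 0.995 with the drug, 0.967 to 0.994 with imiquimod and 1.117 to 1.152 in sham. Standard errors come from the fitted information and the posterior quasi-dispersion. The equivalence test was 2 one-sided tests at 1.5 fold, adjusted over all genes. Library scores used log2 CPM with a prior count of 2. A ratio with 1 to 3 sham counts is given with a 95% counting interval. The difference between experiments came from 1 fit of all 82 libraries. The edgeR step was tested on simulated counts with known changes in a small set of genes, raised and lowered in equal number. That simulation does not address scaling where most genes differ, as they did here.

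Genes were named by rule: a panel of 17 genes; 8 called genes at each end whose log2 CPM averaged 1 or more, without gene models; the 8 largest past sham; the 8 at sham with the largest time-course imiquimod effect; and up to 4 called members of a list by smallest adjusted p, plus members not called. Genes chosen for their position over 3 groups, and members singled out beyond this rule, were named after their values were seen. Members, lists and tests were chosen with earlier results of these data known. Alternatives were RLE factors, DESeq2 1.42.0, voom of limma 3.58.1, other filters, the compared groups alone, other choices of imiquimod genes and leaving out each library. Promoter sequences come from RefSeq on GRCm38.p6, matched by symbol. Figures used matplotlib 3.10.9. Some genes are not reported here.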

Additional observations from a re-analysis of the deposited data

Results flagged for a closer look

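Over the 140 genes named or shown, 280 sets of 6 libraries were searched for a library far from the other 5 by Dixon's criterion, and 13 stood out. Chance gives about 1 in 20, a share that 13 of 280 does not exceed, so the libraries below are listed without a claim that they are unusual. Sham replicate 2 held 5 of the 13: the highest Ccnb1 (16.9 CPM) and Mmp3 (71.7 CPM) and the lowest Krt80 (375 CPM), Lce1m (76.2 CPM) and Paqr7 (129 CPM) of its group. Without that library the drug-minus-sham log2 fold change was 2.29 for Ccnb1, -0.59 for Mmp3, -0.09 for Krt80 (edgeR adjusted p = 0.239), -1.76 for Lce1m and -4.61 for Paqr7, and 13521 genes were called. In the drug group, replicate 28 held the lowest Alox12b (217 CPM) and the highest Cd3g (4.37 CPM), replicate 30 the highest Dcn (1300 CPM) and replicate 27 the lowest Selp (7.85 CPM). In sham, replicate 1 held the highest Selp (6.2 CPM) and Trem1 (0.0362 CPM), replicate 3 the highest Foxp3 (0.709 CPM) and replicate 4 the highest Defb4 (0.0336 CPM). The values of Trem1 and Defb4 each rest on 1 count in the sham group.

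The residual, drug minus sham on the log2 scale, differed between the start-day experiment and the time course for 52 of these genes in the joint edgeR fit. Differences are start-day minus time course. Keratin genes with a higher value in the start-day experiment were Krt77 (1.9), Krt24 (1.68), Krt80 (1.05) and Krt10 (0.89). Envelope genes with a higher value were Flg2 (2.05), Kprp (1.99), Lor (1.9), Sprr4 (1.75), Flg (1.41), Hrnr (1.33), Dsc1 (0.96), Casp14 (0.72) and Tgm3 (0.6). Among late cornified envelope genes the differences were 1.74 for Lce1m, 1.45 for Lce1a2, 1.31 for Lce1a1, 1.1 for Lce6a, 1.06 for Lce3c and 0.98 for Lce1k. Barrier lipid genes followed, with Alox12b at 1.14, Aloxe3 at 1.11, Cers3 at 0.72 and Alox12 at 0.66. Epithelial cytokine genes were higher too, with Il36rn at 1.25, Il36a at 0.85 and Il18 at 0.84. Other genes with a higher value were Unc93a2 (2.05), Calcb (1.78), Fgf22 (1.7), Frmd5 (1.47), Card14 (1.16), Gprin2 (1.16), Prr9 (1.15), Elmod1 (1.11), Adh6b (0.96), and Cfap157 (0.96).

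Lower values in the start-day experiment were found for the muscle genes Pvalb (-1.54), Ckm (-1.24), Actn3 (-1.13), Myh4 (-1.12) and Tnni2 (-0.96). Lymphocyte genes with a lower value were Il23r (-2.77), Scart2 (-1.18) and Cd3g (-0.63). The remaining lower values were -1.06 for Mest, -1.06 for the interferon gene Xaf1, -1.03 for Car9, -0.87 for Tnc, -0.84 for Mlana, -0.59 for Col1a2, -0.49 for Dcn and -0.47 for Aldoa. What set the experiments apart was not tested.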

How the results depend on the processing

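No paired analysis was possible because the drug libraries are numbered 25 to 30 and the sham libraries 1 to 6, so the compared groups share no replicate number. Residual calls numbered 13674 with RLE factors, 13705 with DESeq2, 13791 with voom, 14050 of 40841 genes with no filter, 12580 of 15727 with at least 1 CPM in 6 libraries and 13268 of 17437 in a fit of the compared groups alone. With a log2 change of at least 1 required as well, 4225 genes were called (1847 higher, 2378 lower), 17 lay past sham and 1035 were undecided. Undecided genes numbered 90 with the 1 CPM filter and 207 with the compared groups alone. With a margin of 2 fold, 195 genes were at sham and 176 undecided.

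With the 1071 time-course genes of log2 at least 2, 1015 were still away, 3 past, 1 at sham and 52 undecided, and the medians were 2.48 with the drug and 3.09 with imiquimod for raised genes and -1.90 and -2.65 for lowered genes. With the 4745 imiquimod genes of day 5, 101 were past and 132 at sham, and the medians were 1.21 with the drug and 1.55 with imiquimod for raised genes and -1.23 and -1.61 for lowered genes. With the 5421 imiquimod genes of the start-day experiment, whose sham libraries are shared, 7 were past and 23 at sham. That choice changes both the genes and the libraries that set their direction.

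Leaving out each library in turn gave 13453 to 13659 calls (6639 to 6770 higher, 6778 to 6889 lower), 3413 to 3438 genes away, 36 to 50 past, 44 to 54 at sham and 340 to 365 undecided. The medians then ran from 1.42 to 1.46 with the drug and 1.77 to 1.80 with imiquimod for raised genes, and from -1.38 to -1.32 with the drug and -1.77 to -1.75 with imiquimod for lowered genes. Of 152 genes followed through these settings, 142 kept their side of the threshold wherever an adjusted p was given. No direction reversed where a gene was called in the main fit or in the alternative. Directions of genes called in neither were not compared. Krt2, Cngb1, Cfap157 and Scart2 lost the call under some settings, and Aldoa, Il20, Il33, Elmod1, Ccr6 and Scd3 gained it under some. Genes with few sham counts, such as Il17a and Defb4, have fold changes limited by counting.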
